A study of Mus musculus with 12 samples.

Results

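Mitochondrial ribosomal proteins are the protein components of the mitoribosome, the ribosome inside mitochondria. The genes were chosen by symbol, as *Mrpl* or *Mrps* followed by a number and at most 1 letter from a to c. The rule found 78 of the 24824 genes in the deposited table, 49 of the large subunit (*Mrpl*) and 29 of the small subunit (*Mrps*). AML12 is an immortalized mouse hepatocyte line, derived from mice transgenic for human TGF-α, and the labels give its genotype as WT. Group A was kept in standard medium, group B received CuCl2 (300 μM) with the copper ionophore elesclomol (ES, 40 nM), group C received the same CuCl2 and ES with taurocholic acid (TCA, 1000 μM), and group D received TCA (1000 μM) alone. Exposure lasted 24 h, every group had 3 polyadenylated RNA libraries, and all 12 came from the same cell line. Nothing in the labels said whether libraries of a group came from separate cultures, so p-values measure the spread between these libraries, which may be technical.

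The mitoribosome makes the few proteins that mitochondrial DNA encodes, all of them subunits of the respiratory chain and ATP synthase. Its RNA comes from mitochondrial DNA, whereas every mitochondrial ribosomal protein is encoded in the nucleus, translated in the cytosol and imported. Some members descend from bacterial ribosomal proteins, and others were added during the evolution of mitochondria. Symbols follow history and not always position. *Mrps30* and *Mrps18a* encode proteins of the large subunit in the structure (mL65 and mL66), and *Mrps36* encodes a subunit of the α-ketoglutarate dehydrogenase complex and not of the mitoribosome. In hepatocytes, which carry many mitochondria, this machinery supplies oxidative phosphorylation.

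Levels are FPKM, the reads of a gene per kilobase of its length, scaled to the reads of the library, as the authors deposited them. Recovered totals ran from 29115011 to 39782142 reads a library, and were lower in groups B and C than in groups A and D. A gene was tested where its mean FPKM over the 12 libraries was at least 1, which 10615 genes met, among them all 78 members. Of 10 hepatocyte markers in the table, *Alb* and *Hnf4a* were at or near 0 in every group, and *Krt8* and *Krt18* were high (means of 344 and 285 FPKM in group A). The biliary marker *Krt19* (268 FPKM) and the mesenchymal marker *Vim* (2080 FPKM) were also high in group A, whereas *Adgre1* and *Ptprc* were near 0. For groups A to D in turn, summed FPKM ranged from 599 to 651, 256 to 306, 185 to 225 and 701 to 721 over the 10 hepatocyte markers, nearly all of it *Krt8* and *Krt18*, and from 2120 to 2340, 298 to 354, 154 to 196 and 1810 to 1940 over 7 stellate cell and fibroblast markers. Against these sums, the fetal marker *Afp* rose from 2.56 ± 0.749 to 19.2 ± 0.200 FPKM between groups A and B (SD, n = 3). The 6 biliary markers summed to 920 to 1000, 1240 to 1400, 735 to 951 and 743 to 790 for groups A to D. Within that list *Krt19* fell by 1.78 on the log2 scale between groups B and A, whereas *Sox9* rose by 2.19 and *Spp1* by 0.82. The 5 macrophage markers in the table were at 72.5 to 102 in untreated cells and 24.1 to 37.0 elsewhere, nearly all of it *Cd68*. The 5 endothelial markers were at 0.916 to 1.30 without Cu/ES and 10.5 to 26.8 with it. These sums moved with the groups, and their part in the results was not tested. In bulk RNA, fewer cells of a type and less RNA per cell cannot be told apart.

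Promoters of 5 members are shown because the members differed most in response, by fitted log2 fold change. *Mrpl44* fell most and *Mrps6* rose most between groups B and A, and *Mrps18c* was high with Cu/ES alone. *Mrpl12* and *Mrps26* moved most in opposite directions when TCA was added. Each runs 5′ to 3′ from 250 bases before to 50 bases after the annotated start (RefSeq, GRCm38.p6). Capitals mark the ETS motif CCGGAAG, the kind bound by GABPA, on either strand.
Mrpl44 (chr1:79775768-79776067, + strand): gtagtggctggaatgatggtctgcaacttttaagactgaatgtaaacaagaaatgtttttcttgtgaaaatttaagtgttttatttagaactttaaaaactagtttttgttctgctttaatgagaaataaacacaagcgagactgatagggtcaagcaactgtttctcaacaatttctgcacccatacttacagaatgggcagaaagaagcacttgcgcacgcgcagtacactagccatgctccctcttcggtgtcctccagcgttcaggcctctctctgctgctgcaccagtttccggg
Mrps6 (chr16:92058086-92058385, + strand): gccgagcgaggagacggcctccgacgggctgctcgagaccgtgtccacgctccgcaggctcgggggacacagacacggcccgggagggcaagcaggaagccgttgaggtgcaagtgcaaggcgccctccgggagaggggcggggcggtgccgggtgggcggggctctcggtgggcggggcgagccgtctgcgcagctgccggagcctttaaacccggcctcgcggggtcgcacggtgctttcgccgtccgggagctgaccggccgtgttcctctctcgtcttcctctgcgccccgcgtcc
Mrps18c (chr5:100798509-100798808, + strand): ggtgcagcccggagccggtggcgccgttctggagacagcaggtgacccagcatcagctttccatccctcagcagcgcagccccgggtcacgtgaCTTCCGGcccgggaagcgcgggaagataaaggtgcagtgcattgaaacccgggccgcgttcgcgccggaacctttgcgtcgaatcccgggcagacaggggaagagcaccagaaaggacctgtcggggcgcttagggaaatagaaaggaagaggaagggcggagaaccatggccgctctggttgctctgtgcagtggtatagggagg
Mrpl12 (chr11:120484387-120484686, + strand): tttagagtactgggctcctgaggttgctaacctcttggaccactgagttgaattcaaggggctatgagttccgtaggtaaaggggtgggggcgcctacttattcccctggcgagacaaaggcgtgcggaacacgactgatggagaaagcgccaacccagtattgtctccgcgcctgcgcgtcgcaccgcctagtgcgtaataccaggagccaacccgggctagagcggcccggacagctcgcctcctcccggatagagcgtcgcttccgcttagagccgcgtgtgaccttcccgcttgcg
Mrps26 (chr2:130563507-130563806, + strand): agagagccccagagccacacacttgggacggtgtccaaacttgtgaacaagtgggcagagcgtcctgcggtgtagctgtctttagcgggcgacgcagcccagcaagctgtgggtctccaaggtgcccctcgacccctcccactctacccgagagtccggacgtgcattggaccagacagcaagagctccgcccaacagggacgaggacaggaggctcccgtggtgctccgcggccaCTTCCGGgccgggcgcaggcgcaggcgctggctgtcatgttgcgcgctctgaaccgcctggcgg
*Mrps18c* and *Mrps26* each held 1 such motif, and the windows of *Mrpl44*, *Mrps6* and *Mrpl12* held none. RefSeq gave a promoter for 69 of the 78 members. The ETS motif was present in 37.7% of these, against 21.9% of 8504 tested genes and 9.93% of all 27025 genes with promoters of the same length. The YY1 motif AAGATGGC was present in 17.4% of the members, 5.69% of tested genes and 3.19% of all. The NRF1 core GCATGCGC was present in 11.6%, 6.46% and 3.05%. The heat shock pairs GAANNTTC and TTCNNGAA, which read alike on both strands, were present in 7.25% and 2.9% of members against 6.54% and 8.29% of tested genes. Both strands were searched, and a gene counted if any of its promoters held the motif. A gene could count under several motifs, and motifs were allowed to overlap. The 26 members with the ETS motif had a median log2 fold change of -1.26 between groups B and A, and the 43 without it -1.42. For the YY1 motif the medians were -1.23 (12 members) and -1.52 (57). For the NRF1 core they were -0.80 (8) and -1.42 (61). For GAANNTTC they were -1.52 (5) and -1.26 (64), and for TTCNNGAA -1.03 (2) and -1.42 (67). These shares and medians are descriptions of the letters in the window.

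In untreated cells the members spanned a 34.1-fold range of mean level, from 2.89 FPKM for *Mrps25* to 98.6 FPKM for *Mrpl13*. Their median level was 19.4 FPKM, with 17.6 for large subunit members and 22.8 for small subunit members. Replicates were close, with median coefficients of variation of 5.42%, 8.79%, 13.4% and 7.05% for groups A to D in turn. Together the members held 0.521% ± 0.00608 of the summed FPKM in group A and 0.547% ± 0.0139 in group D (mean ± SD, n = 3). With Cu/ES the share was 0.230% ± 0.00379 (group B) and 0.201% ± 0.00954 (group C). The 6 Cu/ES libraries lay between 0.192% and 0.233%, all below the 6 others, which lay between 0.517% and 0.562%. The members' summed FPKM fell less than the share, from 2000 ± 55.1 in group A to 1140 ± 30.6 in group B. Across all genes tested the median of log2(FPKM + 1) was also lower with Cu/ES, 2.28 to 2.37 a library against 3.57 to 3.61. The typical gene thus fell as well.

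The members drew apart from each other with Cu/ES. The SD over the 78 members of log2(FPKM + 1) was 1.03 to 1.07 in the libraries without Cu/ES and 1.55 to 1.62 in those with it. Over all tested genes it was 1.73 to 1.8 and 2.14 to 2.17, so the rest of the genes drew apart as well. The order of levels changed with it. Spearman's rho across the members was 0.98 between the means of groups A and D and 0.98 between groups B and C, but 0.72 between groups A and B, a description over 78 genes of the same libraries. *Mrps6* moved from rank 37 of 78 in group A to rank 1 in group B, *Mrps34* from rank 16 to rank 60, and *Mrpl44* from rank 44 to rank 77. No member had a group mean below 1 FPKM in groups A or D, whereas 6 did in group B and 9 in group C.

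**Figure D1:**
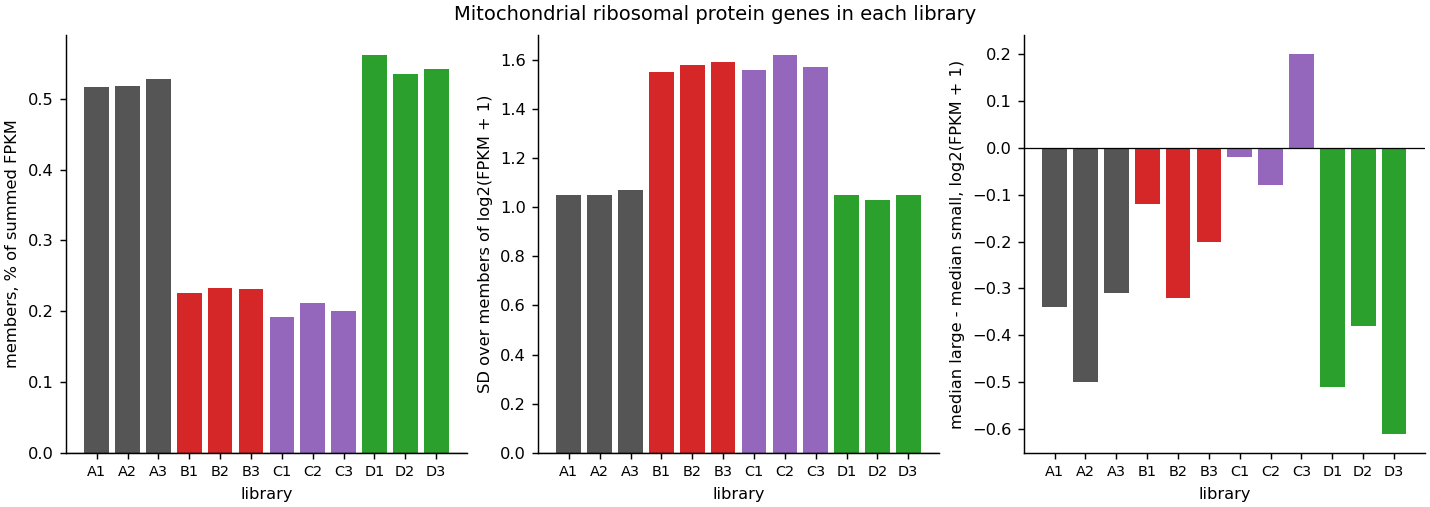
Each bar is 1 of the 12 libraries, coloured by group. The left panel gives the members' percent of summed FPKM, the middle panel the SD over the 78 members of log2(FPKM + 1), and the right panel the median of large minus the median of small subunit members on that scale. The share fell from over 0.5% to under 0.24% with Cu/ES while the SD rose from about 1.05 to over 1.5. The typical gene fell as well, with a median log2 fold change over all genes tested of -1.10 between groups B and A.

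The comparison of groups B and A asked what copper loading did. Of the 78 members, 65 were lower and 9 higher at an adjusted p under 0.05 (limma with Benjamini-Hochberg adjustment over all genes tested), and 4 did not pass (*Mrpl3*, *Mrpl21*, *Mrps9* and *Mrps28*). Of all genes tested, 72.0% were lower and 20.1% higher, against 83.3% and 11.5% of the members. Past an absolute log2 fold change of 1 as well, 50 members were lower and 1 was higher, against 53.0% and 10.1% of all genes. The median log2 fold change of the members was -1.26 (lower and upper quartile -1.99 and -0.65), and that of all genes was -1.10. Median-ratio scaling, which centres each library on its typical gene, moved the median of all genes from -1.10 to -0.03 and that of the members to -0.20. Under it 38 members were lower and 25 higher, against 45.0% and 42.8% of all genes. Of the 65 lower members, 38 were lower in both scalings, 15 no longer passed and 12 were higher, and all 9 higher members were higher in both. TPM scaling gave 4 higher members and quantile normalization 22. The response thus ran from strong fall to strong rise around the median of all genes.

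Among the falls, *Mrpl44* (mL44, a large subunit protein with an RNase III-like fold) was at 17.6, 16.9 and 18.2 FPKM in group A and 0.532, 0.0219 and 0.297 FPKM in group B. The group B values rested on 24, 1 and 13 reads, so their ratio is imprecise, but no library came near group A. Its mean FPKM was 61.9-fold lower. The fitted log2 fold change was -3.87 (standard error 0.14, adjusted p = 2.9e-12), a smaller change because the fit used log2(FPKM + 1). This scale understates changes of low genes, here and below. *Mrps34* (mS34, needed for a stable small subunit) was at 43.5, 40.8 and 43.8 FPKM in group A and 2.69, 1.61 and 2.84 FPKM in group B, a log2 fold change of -3.71 (standard error 0.16, adjusted p = 2.27e-11). The groups were far apart. In GENCODE M21 gene models *Mrps34* shares 289 exon bases on the same strand with *Nme3*, which fell too (9.36 ± 1.07 to 0.205 ± 0.0699 FPKM, log2 fold change -3.10). On the opposite strand *Mrps34* shares 971 exon bases with *Mapk8ip3*, and *Mrpl44* shares 126 with *Wdfy1*.

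*Mrps2* (uS2m, a small subunit protein with a bacterial homolog) was at 11, 14.5 and 12.2 FPKM in group A and 0.396, 0.38 and 0.0263 FPKM in group B, a log2 fold change of -3.42 (standard error 0.13, adjusted p = 4.48e-12). Its mean FPKM was 46.9-fold lower, and its group B values rested on 31, 30 and 2 reads. *Mrpl55* (bL31m) went from 21.6, 17.7 and 16.8 FPKM to 0.826, 1.09 and 0.788 FPKM, a log2 fold change of -3.37 (standard error 0.15, adjusted p = 3.31e-11). All 4 stayed past the threshold under median-ratio scaling, with log2 fold changes of -3.10 for *Mrpl44*, -2.60 for *Mrps34*, -2.67 for *Mrps2* and -2.41 for *Mrpl55*.

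*Mrps6* (bS6m, a small subunit protein with a bacterial homolog) was the one member higher past both thresholds. It was at 17.7, 25.1 and 20.9 FPKM in group A and 81.8, 109.0 and 94.5 FPKM in group B. The groups did not overlap, and the mean FPKM was 4.48-fold higher, with a fitted log2 fold change of 2.12 (standard error 0.14, adjusted p = 2.22e-09). *Mrps6* shares 159 exon bases on the same strand with *Slc5a3*, the gene of the sodium and myo-inositol cotransporter, so reads could be split between them. *Slc5a3* itself was at 6.46 ± 1.10 FPKM in group A and 7.40 ± 0.21 in group B, a log2 fold change of 0.18 (adjusted p = 0.188). Between groups C and D, where *Mrps6* was also higher, *Slc5a3* rose by 0.85 (adjusted p = 1.79e-05).

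The 3 genes whose products are relatives of the bacterial protein S18 were all higher. *Mrps18c* (bS18m, in the small subunit) was at 49.7, 46.8 and 51.4 FPKM in group A and 90.4, 100 and 89.9 FPKM in group B, a log2 fold change of 0.91 (standard error 0.10, adjusted p = 5.02e-07). *Mrps18a* (mL66, in the large subunit) went from 51.2, 55.6 and 55.5 FPKM to 78.3, 81.2 and 89.5 FPKM, a log2 fold change of 0.61 (adjusted p = 5.21e-05). *Mrps18b* (mS40, in the small subunit) went from 29.0, 26.4 and 29.3 FPKM to 36.6, 41.3 and 40.3 FPKM, a log2 fold change of 0.47 (adjusted p = 0.000123), but of 0.11 with TPM scaling (adjusted p = 0.211). No group B library of the 3 genes overlapped group A. *Mrpl27* (bL27m, of the large subunit) also rose, from 13.1, 14.1 and 13.1 FPKM to 21.2, 21.6 and 24.1 FPKM, a log2 fold change of 0.69 (adjusted p = 4e-06). The other higher members were *Mrpl20*, *Mrpl32*, *Mrpl47* and *Mrpl51*.

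**Figure D2:**
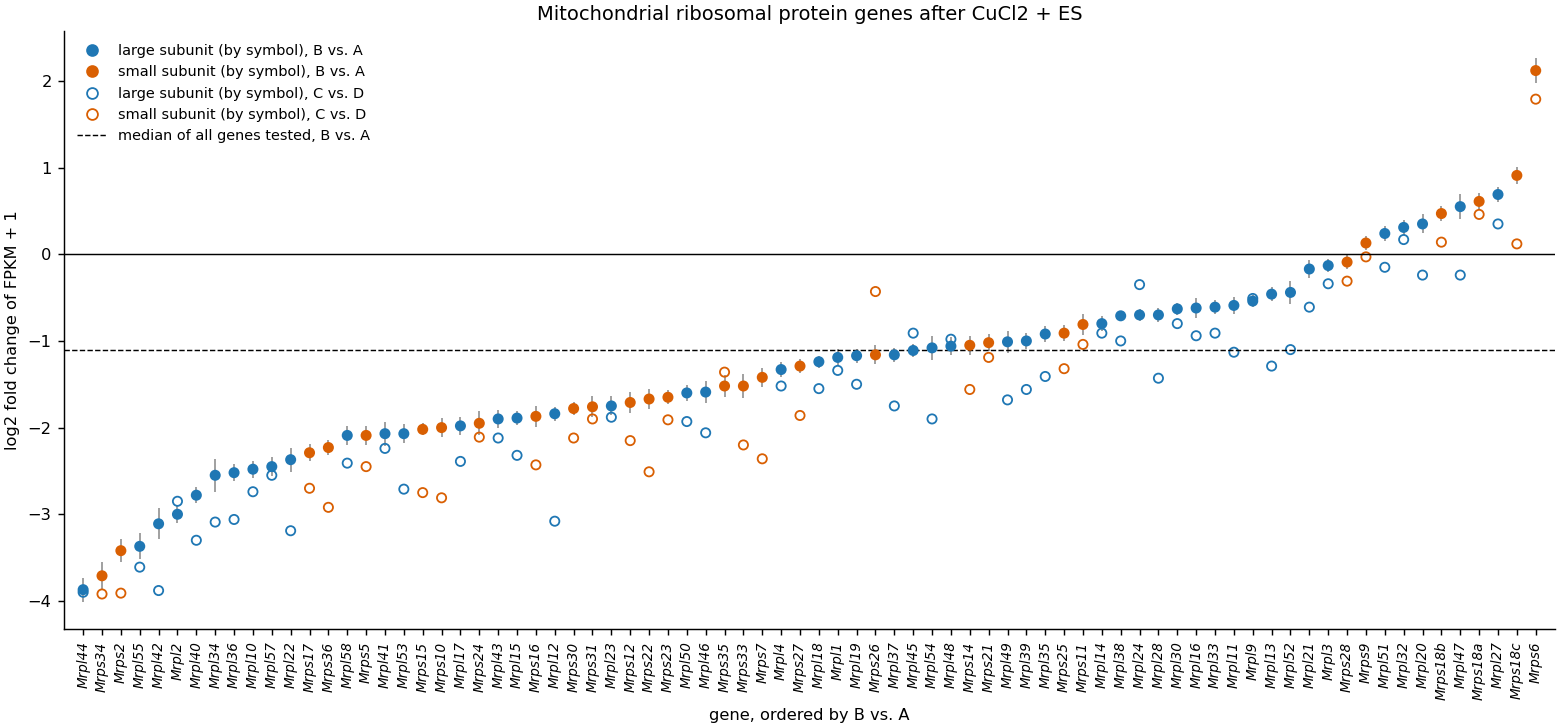
Log2 fold changes of all 78 members, ordered by the comparison of groups B and A (filled points, bars are standard errors), with the comparison of groups C and D as open points. Members ran from -3.87 for *Mrpl44* to 2.12 for *Mrps6*, on both sides of the median of all genes tested at -1.10 (dashed line).

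Other members with a role set apart were lower. *Mrpl12* (bL12m), a stalk protein that also binds the mitochondrial RNA polymerase, went from 69.6 ± 2.24 to 18.7 ± 1.09 FPKM (SD, n = 3), with a log2 difference of -1.84 (adjusted p = 2.13e-11). Its stalk partner *Mrpl10* (uL10m) fell from 42.9 ± 1.68 to 6.90 ± 1.25 FPKM, by 2.48 on the log2 scale. *Mrpl58* (mL62), a peptidyl-tRNA hydrolase that frees stalled chains, fell from 11.7 ± 0.723 to 2.01 ± 0.421 FPKM, by 2.09 on that scale. *Mrps12* (uS12m), of the decoding centre, fell from 15.1 ± 0.844 to 3.95 ± 0.648 FPKM, by 1.71. *Mrps30* (mL65) fell from 25.8 ± 1.04 to 6.83 ± 0.782 FPKM, by 1.78. *Mrps36*, the dehydrogenase subunit, fell from 29.0 ± 1.47 to 5.43 ± 0.889 FPKM, by 2.23. The adjusted p of these 5 lay between 9.08e-12 and 3.55e-09. All 6 also stayed lower under median-ratio scaling.

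The most abundant member, *Mrpl13* (uL13m), went from 98.6 ± 6.13 to 71.3 ± 2.51 FPKM, a log2 fold change of -0.46 (adjusted p = 9.93e-05), but of 0.81 under median-ratio scaling. The 3 members with the lowest mean over all libraries were *Mrps25* (mS25), *Mrpl41* (mL41) and *Mrpl15* (uL15m). *Mrps25* fell from 2.89 ± 0.101 to 1.07 ± 0.140 FPKM, *Mrpl41* from 4.61 ± 0.451 to 0.338 ± 0.133 FPKM, and *Mrpl15* from 5.61 ± 0.161 to 0.782 ± 0.145 FPKM, with adjusted p of 2.26e-07, 2.02e-09 and 1.23e-11. Under median-ratio scaling *Mrps25* did not pass (log2 fold change -0.10), and under quantile normalization it was at 0.46. Across the 78 members, the fold change was only weakly related to GC content, exon number, gene length or level in group A, with Spearman's rho from -0.20 to 0.22 over the 4 comparisons of groups, a description over genes of the same libraries.

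The subunits were compared next. Between groups B and A the median log2 fold change was -1.16 for the 49 large subunit members and -1.52 for the 29 small subunit members. The means ran the other way, -1.32 for large and -1.27 for small. Of the large subunit members 85.7% were lower, and of the small 79.3%. The difference of the medians was 0.36 with subunits taken by symbol or by position in the structure, and between 0.12 and 0.56 under other processing. Without replicate 1 of group B it was 0.54. By library, the median level of large minus that of small members was -0.50 to -0.31 (group A) and -0.32 to -0.12 (group B), which overlapped, and -0.61 to -0.38 (group D) and -0.08 to 0.20 (group C), which did not. With means in place of medians, groups A and B were at -0.24 to -0.21 and -0.32 to -0.24. Groups D and C were then at -0.29 to -0.25 and -0.35 to -0.29, which met and moved the other way. Median and mean thus gave opposite orders of the subunits.

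By origin as read from names such as bL31m and mL44, leaving out *Mrps36*, the median was -1.11 for the 46 bacterial homologs. For the 31 members classed as particular to mitochondria it was -1.52, with means of -1.14 and -1.51. With subunits by symbol, the medians were -0.86 for 30 homologs and -1.59 for 19 others of the large subunit (means -1.12 and -1.63), and -1.56 for 16 and -1.52 for 12 of the small subunit (means -1.16 and -1.33). The 12 include *Mrps18a* and *Mrps30*, which belong to the large subunit in the structure. Both classes held falls and rises. *Mrpl44* and *Mrpl42* fell in the second class, and *Mrps2* (-3.42) and *Mrpl55* (-3.37) in the first. *Mrps6* and *Mrpl27* rose in the first class, and *Mrps18a* (0.61) and *Mrps18b* (0.47) in the second. The names mL66 and mS40 put *Mrps18a* and *Mrps18b* there, although their products are relatives of bacterial S18. The split by origin therefore depends on this naming. These are descriptions, and the difference was not tested.

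Copper loading was applied a second time, in the presence of TCA, and groups C and D share no library with groups A and B. Between groups C and D, 68 members were lower and 3 higher (*Mrps6*, *Mrps18a* and *Mrpl27*), against 71.5% and 20.9% of all genes tested. Past both thresholds 55 were lower and 1 higher, against 53.3% and 11.2%. All 65 members lower between groups B and A were lower here, which is 100% of that list and 95.6% of the 68. The same overlap was not counted over all genes tested, of which 72.0% and 71.5% were lower in these comparisons. It is thus not a result about the members in particular. Without replicate 1 of group C, or of group D, 5 members were higher. The 3 higher members were 33.3% of the 9 higher before. Spearman's rho between both sets of log2 fold changes was 0.96 over the 78 members and 0.94 over all genes tested. The median was -1.71 for the members and -1.13 for all genes. In 71 of the 78 members the log2 fold change was more negative than between groups B and A, against 5307 of the 10615 genes tested. This count is the same quantity as the sign of the interaction given below. Under median-ratio scaling 50 were lower and 20 higher, against 46.8% and 42.0% of all genes.

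Individual values with TCA were as follows. *Mrpl44* was at 19.0, 19.6 and 15.9 FPKM in group D and 0.193, 0.483 and 0.174 FPKM in group C. *Mrps2* was at 16.0, 16.4 and 13.8 FPKM in group D and 0.0278, 0.128 and 0.125 FPKM in group C, from 2, 11 and 10 reads. *Mrps6* was at 31.0, 32.3 and 28.5 FPKM in group D and 92.6, 132.0 and 104.0 FPKM in group C, a log2 fold change of 1.79 (adjusted p = 1.46e-08). *Mrps18c* was at 62.2, 48.2 and 51.1 FPKM in group D and 51.9, 64.2 and 59.6 FPKM in group C, where the groups overlapped (log2 fold change 0.12, adjusted p = 0.241). Median-ratio scaling gave 1.36 for *Mrps18c* and quantile normalization 0.38, both past the threshold. *Mrps18b* was at 0.14 (adjusted p = 0.124), or 1.37 with median-ratio scaling, and *Mrps18a* at 0.46 (adjusted p = 0.000585). *Mrps18c* passed without replicate 1 of group D (0.23, adjusted p = 0.0295), and *Mrps18b* without replicate 1 of group C (0.22, adjusted p = 0.0236). *Mrpl27* was at 0.35 (adjusted p = 0.00187), but at 0.08 with TPM scaling.

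**Figure D3:**
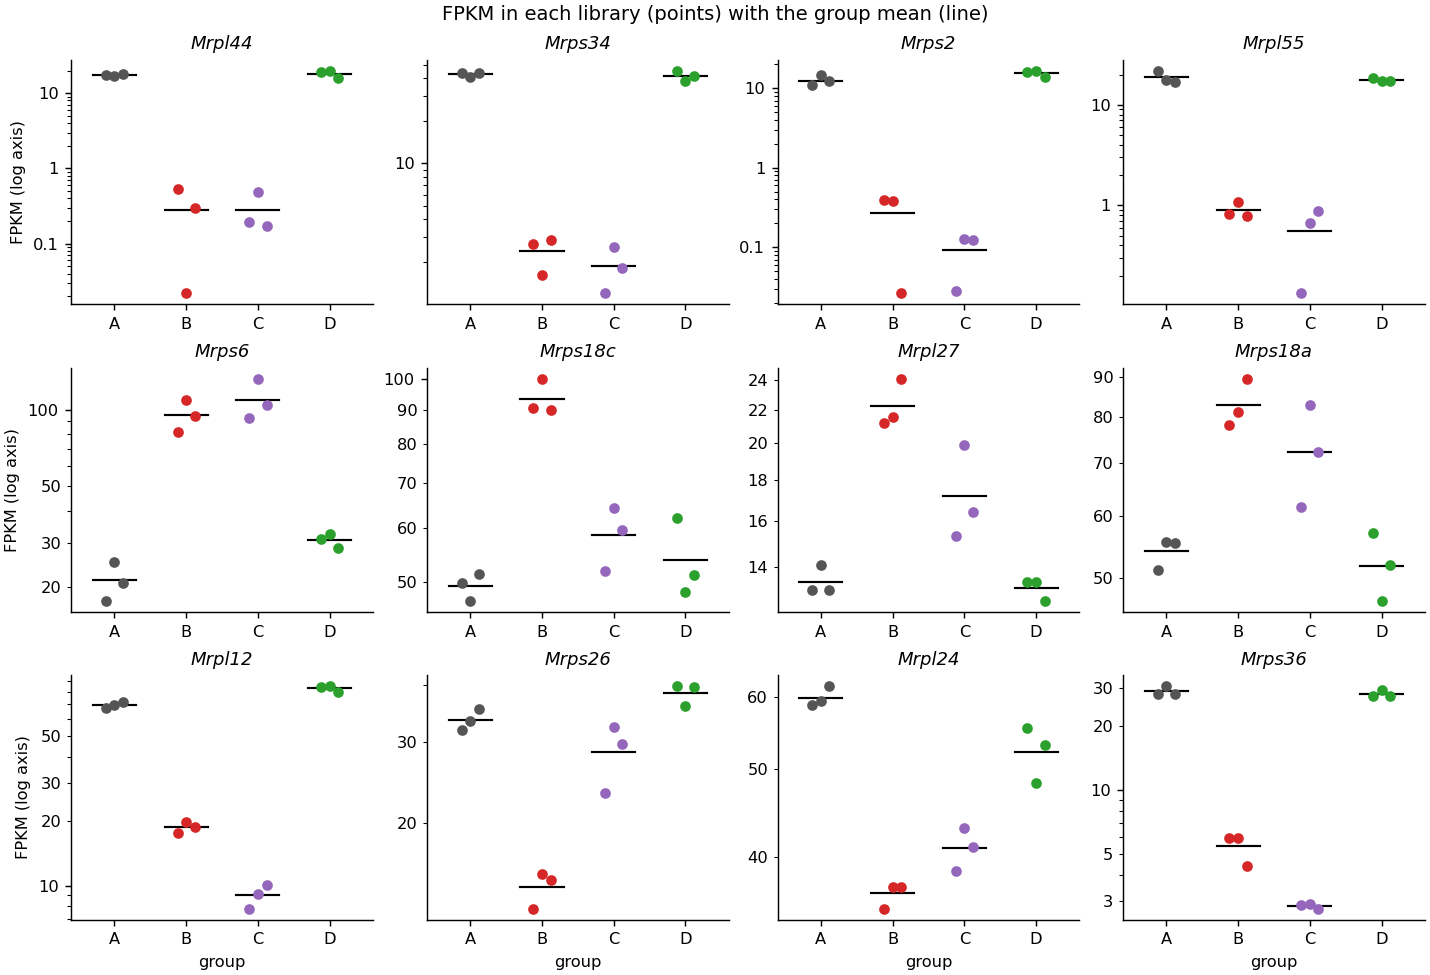
FPKM of 12 members in each library (points) with the group mean (line), on a log axis with its own range in each panel. *Mrpl44*, *Mrps34*, *Mrps2* and *Mrpl55* were far lower in both Cu/ES groups (B and C), *Mrps6* was higher in both, *Mrps18c* was high in group B alone, *Mrpl12* and *Mrps36* stepped down from group B to group C, and *Mrps26* was higher in group C than in group B.

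Adding TCA to Cu/ES lowered many members and raised 1. Of the 78, 38 were lower and 1 was higher in group C, whereas 23.6% of all genes were lower and 20.4% higher. The 38 were 48.7% of the members, 25 of the large subunit (51.0%) and 13 of the small (44.8%). Shifts were small, and 0 members passed both thresholds, which 2.29% of all genes did. With limma-voom on recovered reads 5 members passed both, and with a pseudocount of 0.1 there were 4. The median was -0.26 for the members and -0.03 for all genes. Of the 78 members 64 were below 0, against 5746 of the 10615 genes tested. In 39 members all 3 libraries of group C were below all 3 of group B, and in 2 all were above, against 27.2% and 22.0% of all genes. Median-ratio scaling left the medians at -0.27 and -0.03, so this result did not turn on scaling. This comparison and that of groups B and A share the libraries of group B.

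*Mrpl12* fell most. It was at 17.6, 19.8 and 18.7 FPKM in group B and 7.81, 9.11 and 10.1 FPKM in group C, a log2 fold change of -0.98 (standard error 0.08, adjusted p = 1.71e-06). The groups were well apart. *Mrps33* (mS33) went from 5.98, 3.67 and 4.31 FPKM to 2.05, 2.39 and 1.56 FPKM, a log2 fold change of -0.90 (standard error 0.14, adjusted p = 0.000157). *Mrpl28* (bL28m) went from 28.3, 27.1 and 28.3 FPKM to 13, 16.9 and 14.0 FPKM, a log2 fold change of -0.89 (standard error 0.08, adjusted p = 3.82e-06). *Mrpl28* had been lower in group B than in group A by 0.70 on the log2 scale, but was higher by 0.55 under median-ratio scaling. *Mrpl42* (mL42) went from 4.08, 3.58 and 5.05 FPKM to 3.09, 1.91 and 1.08 FPKM, a log2 fold change of -0.84 (standard error 0.18, adjusted p = 0.00227). In all 4 genes the groups did not overlap. By the ratio of mean FPKM, C over B, *Mrps33* (0.429), *Mrps10* (0.434) and *Mrpl42* (0.479) were below *Mrpl12* (0.481). *Mrps10* had a log2 fold change of -0.77 (adjusted p = 9.47e-05), and its groups did not overlap either. *Mrps2* had the lowest ratio, 0.35, but its groups overlapped at 2 to 31 reads a library.

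The S18 genes parted here. *Mrps18c* went from 93.5 ± 5.73 to 58.6 ± 6.20 FPKM, a log2 fold change of -0.67 (adjusted p = 0.000109), whereas *Mrps18a* was at -0.21 (adjusted p = 0.119) and *Mrps18b* at 0.00 (adjusted p = 0.976). *Mrps36* fell from 5.43 ± 0.889 to 2.86 ± 0.0789 FPKM, by 0.73 on the log2 scale (adjusted p = 3.89e-05), and *Mrps30* fell by 0.37 (adjusted p = 0.00229). *Mrpl10*, *Mrpl58*, *Mrps12* and *Mrpl44* did not pass, with log2 fold changes of -0.22, -0.23, -0.06 and 0.01. The largest falls with Cu/ES, *Mrpl44*, *Mrps34*, *Mrps2* and *Mrpl55*, all gave an adjusted p above 0.1 between groups C and B, at levels near the lower end of the measurement. The last 3 passed without single libraries, *Mrps34* without replicate 2 of group B or C (-0.43 each), *Mrps2* without replicate 3 of group B (-0.35) and *Mrpl55* without replicate 3 of group C (-0.47). *Mrps18a* passed without replicate 2 of group C (-0.31), *Mrpl10* without replicate 1 of group B (-0.29), and *Mrpl58* without replicate 2 of group B (-0.35) or of group C (-0.30).

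The exception was *Mrps26* (mS26), the one member that was higher. It was at 13, 15.5 and 15.0 FPKM in group B and 23.3, 32.4 and 29.8 FPKM in group C, a log2 fold change of 0.92 (standard error 0.11, adjusted p = 1.74e-05). All 3 libraries of group C were above all 3 of group B. *Mrps26* was at 31.9, 33.3 and 35.5 FPKM in group A, and group C overlapped this range. Against group D it was at -0.43 (adjusted p = 0.00149), but at 0.79 with median-ratio scaling. Annotated exons of *Mrps26* share 8 bases with an antisense gene, and whether counting used strand is not given in the sources used here.

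TCA alone changed few members. Against group A, 9 members were higher and 1 was lower, against 10.5% and 11.5% of all genes tested, and 0 passed both thresholds against 0.217% of all genes. The count of 9 is 11.5% of the members and near the background. The median was 0.07 for the members and -0.01 for all genes. In 21 members all 3 libraries of group D were above group A, against 20.7% of all genes, and in 4 all were below, against 23.5%. Leaving out 1 library moved the count of higher members to between 2 and 12. It was 3 without replicate 1 of group A, 5 without its replicate 2 and 2 without its replicate 3, and 2, 3 and 3 without replicates 1, 2 and 3 of group D.

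The largest rise was again in *Mrps6*, with the group D values given above, 28.5 to 32.3 FPKM, against 17.7 to 25.1 FPKM in group A, a log2 fold change of 0.52 (standard error 0.14, adjusted p = 0.0193). *Mrpl20* (bL20m) went from 21.0, 22.6 and 20.0 FPKM to 30.3, 29.4 and 24.6 FPKM, a log2 fold change of 0.39 (adjusted p = 0.0223). *Mrps12* (uS12m) went from 14.5, 14.8 and 16.1 FPKM to 19.3, 18.5 and 22.2 FPKM, a log2 fold change of 0.38 (adjusted p = 0.038). *Mrpl36* (bL36m) went from 13.2, 13.6 and 12 FPKM to 16.0, 18.5 and 16.3 FPKM, a log2 fold change of 0.36 (adjusted p = 0.0175). In all 4 genes the groups did not overlap, yet each lost its call when some single libraries were left out. *Mrps6* did so without replicates 1 or 3 of group A or 1 or 2 of group D, where its adjusted p was 0.0559 to 0.0926. *Mrpl20* lost its call without the same 4 libraries, *Mrps12* without any library of group A or replicate 1 or 3 of group D, and *Mrpl36* without replicate 3 of group A or 2 of group D. Calls were also lost for *Mrps12* with median-ratio scaling (adjusted p = 0.062), TPM (adjusted p = 0.0503), no filter or a pseudocount of 0.1, for *Mrps6* and *Mrpl20* with no filter, and for *Mrpl36* with a pseudocount of 0.1. The single lower member, *Mrpl24* (uL24m), was at 59.9 ± 1.49 and 52.2 ± 3.68 FPKM, a log2 fold change of -0.20 (adjusted p = 0.0484), and did not pass under median-ratio scaling (adjusted p = 0.204), nor without any 1 library of group A or replicate 2 or 3 of group D.

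The interaction tested whether the effect of TCA differed with copper. It is the C vs. B difference minus the D vs. A difference in log2, within the same fit. In 39 members it was negative and in 2 positive at an adjusted p under 0.05, against 19.8% and 17.7% of all genes tested. With limma-voom on recovered reads and median-ratio scaling 25 were negative. Its median was -0.34 for the members and 0.00 for all genes. Of the 78 members 71 were below 0, against 5307 of the 10615 genes tested, which repeats the count given for groups C and D. The 39 were 25 of the large and 14 of the small subunit, 51.0% and 48.3% of each. *Mrpl12* had the most negative value, -1.24 (standard error 0.11, adjusted p = 1.33e-05), being lower with TCA added to Cu/ES and at 83.1 ± 2.84 against 69.6 ± 2.24 FPKM with TCA alone (log2 fold change 0.25, adjusted p = 0.0403, a call lost without any 1 library of group A or D). *Mrps26* (0.73, adjusted p = 0.0021) and *Mrpl24* (0.36, adjusted p = 0.00948) were the positive ones.

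**Figure D4:**
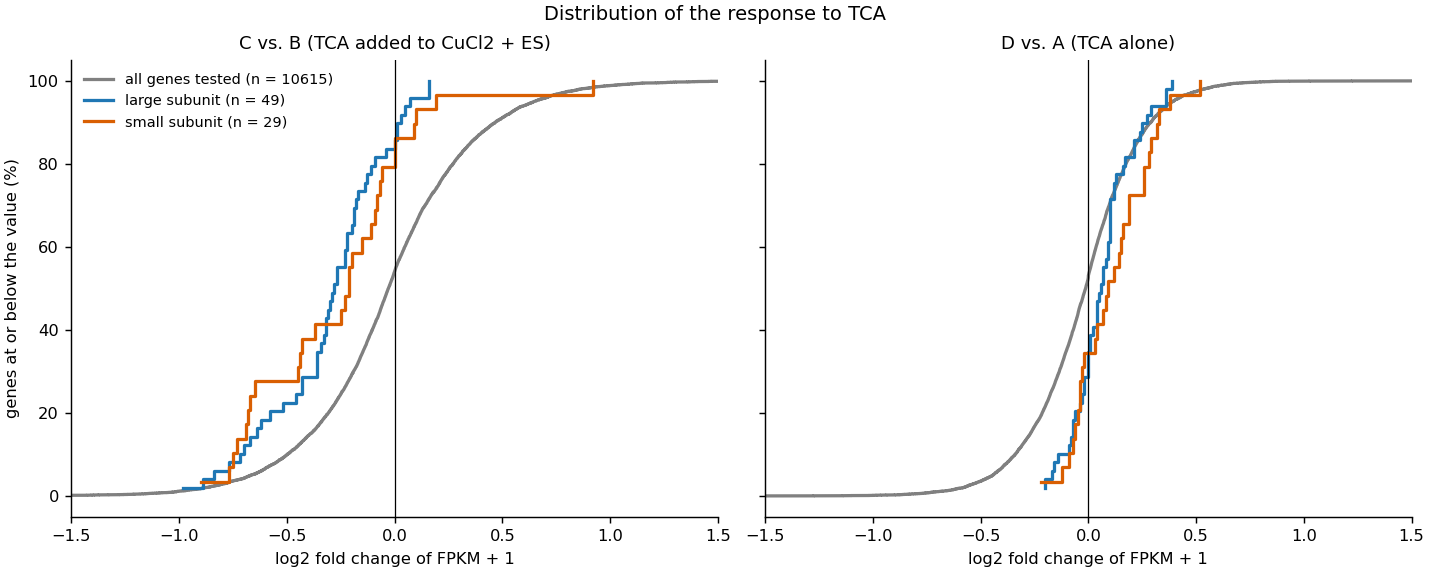
Cumulative percent of genes at or below each log2 fold change, for all 10615 genes tested, 49 large and 29 small subunit members. Both subunits lay to the left of all genes when TCA was added to Cu/ES (median of members -0.26 against -0.03) and slightly to the right with TCA alone (0.07 against -0.01).

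Mitoribosomal proteins that carry other symbols were read separately. *Dap3* (mS29, a GTP-binding protein), *Ptcd3* (mS39), *Chchd1* (mS37), *Aurkaip1* (mS38) and *Gadd45gip1* (mL64) were all lower with Cu/ES alone. *Dap3* fell from 24.1 ± 1.56 to 8.44 ± 0.664 FPKM, by 1.41 on the log2 scale, and *Gadd45gip1* from 17.6 ± 1.31 to 1.82 ± 0.461 FPKM, by 2.73. *Ptcd3* fell by 1.17, *Chchd1* by 1.14 and *Aurkaip1* by 0.33, and under median-ratio scaling these 3 were at -0.01, 0.11 and 0.92. After TCA was added, 4 of the 5 were lower again, with log2 fold changes of -0.29 for *Dap3*, -0.73 for *Ptcd3*, -0.88 for *Chchd1* and -0.66 for *Gadd45gip1*, while *Aurkaip1* was at 0.18 (adjusted p = 0.0755).

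Most genes in lists that build or serve the mitoribosome were lower with Cu/ES, as most genes tested were. Of 24 tested assembly factors 22 were lower and 1 higher in group B, against 72.0% and 20.1% of all genes, and the median was -1.60. The RNA helicase gene *Ddx28* went from 8.29 to 0.0450 mean FPKM (log2 fold change -3.15), *Mettl17* from 7.46 to 0.739 (-2.29), and the pseudouridine synthase gene *Trub2* from 3.62 to 4.44 (0.23). Of 18 genes of mitochondrial translation factors 15 were lower and 1 was higher, with a median of -1.55. The elongation factor gene *Tsfm* went from 20.4 to 1.01 mean FPKM (log2 fold change -3.42), the translational activator gene *Taco1* from 8.06 to 0.186 (-2.94), and the RNA-binding protein gene *Lrpprc* from 22.4 to 45.2 (0.98). Of 16 genes of mitochondrial transcription and RNA processing 12 were lower and 4 higher, shares near those of all genes, with a median of -1.49 and a mean of -0.91. *Tefm*, the elongation factor of the mitochondrial polymerase, went from 8.97 to 0.146 mean FPKM (log2 fold change -3.12), *Supv3l1*, a helicase of RNA decay, from 9.18 to 31.1 (1.65), and *Trmt10c*, of tRNA processing, from 12.3 to 33.6 (1.38).

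When TCA was added, these lists gave medians nearer 0. In group C against group B, 4 assembly factors were lower and 4 higher (median 0.02), 4 translation factors were lower and 0 higher (median -0.10), and 3 transcription genes were lower and 3 higher (median -0.07), against 23.6% and 20.4% of all genes. *Mrm2*, an rRNA methyltransferase gene, went from 2.33 to 7.17 mean FPKM (log2 fold change 1.30, adjusted p = 9.35e-07) and *Mtg2*, a GTPase gene, from 1.55 to 4.16 (log2 fold change 1.02). The translation elongation factor gene *Gfm1* went from 8.67 to 4.68 mean FPKM (log2 fold change -0.77), and *Hsd17b10*, a subunit of mitochondrial RNase P, from 27.9 to 15.7 (-0.80). Whether the lists differed from the members was not tested.

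The cytosolic ribosomal proteins gave a contrast. Of 81 tested genes of that family, chosen by symbol after earlier results were known, 76 were higher and 3 lower with Cu/ES alone, against 20.1% and 72.0% of all genes. Their median was 0.98 on the log2 scale, and that of the mitochondrial ones -1.26. Many of them have near-identical pseudogenes, so their reads may be divided. After TCA was added their median was -0.13 with 17 lower and 1 higher, against 23.6% and 20.4% of all genes, and with TCA alone it was -0.03. Both families share the same libraries.

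**Figure D5:**
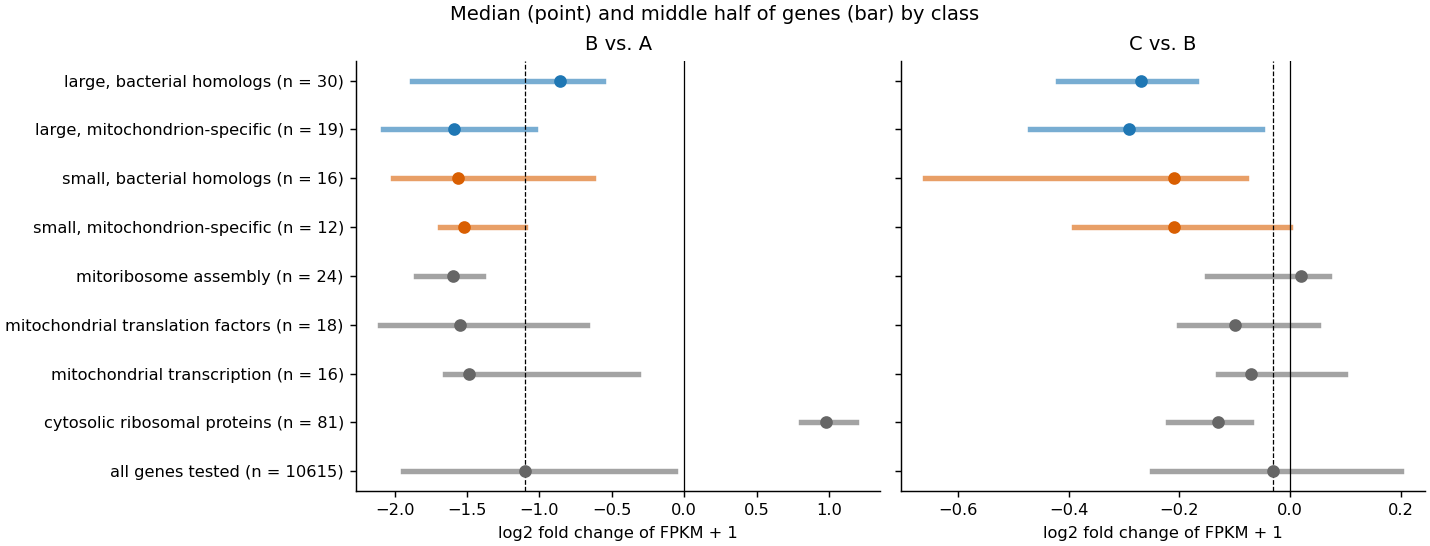
Median log2 fold change (point) and lower to upper quartile of the genes (bar) for members by subunit and origin and for 4 related lists, with all genes tested in the last line and their median as a dashed line. Between groups B and A the cytosolic ribosomal proteins (median 0.98) lay apart from every mitochondrial list or class shown (-0.86 to -1.60). In the panel for groups C and B the 4 classes of members had medians of -0.21 to -0.29, and the other mitochondrial lists -0.10 to 0.02.

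Gene models overlap at many of these loci. Exons of 33 members share bases with an exon of another gene in GENCODE M21, 8 of them on the same strand, and 45 members overlap no other gene. On opposite strands, among others, *Mrps25* overlaps *Nr2c2* by 3533 bases, *Mrpl19* overlaps *Gcfc2* by 1962 and *Mrps34* overlaps *Mapk8ip3* by 971. *Mrps18b* overlaps the antisense gene *Gm16279* by 578, *Mrpl24* overlaps *Rrnad1* by 463, and *Mrpl13* overlaps *Mtbp* by 330. The members *Mrpl46* and *Mrps11* overlap each other by 173 bases. Values of such members may hold reads of the neighbour.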

How the data were processed

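The study sequenced polyadenylated RNA of AML12 cells, 3 libraries in each of 4 groups. The authors deposited FPKM values. The submitters' processing notes name fastp, HISAT2, HTSeq and GRCm39, while the annotation and strand setting are not given in the sources used here. Members, gene lists and tests were chosen with earlier results of these data known.

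Whole reads behind the FPKM were worked out from the steps between low values, and all 22212 genes above 0 in at least 2 libraries gave whole reads within 0.02 of a read. A model of 4 group means was fitted to log2(FPKM + 1) of the 12 libraries in limma 3.58.1 (R 4.3.3, empirical Bayes with trend, 8 residual degrees of freedom, two-sided), with Benjamini-Hochberg adjustment over the 10615 genes of mean FPKM 1 or more. This scale understates changes of low genes. The study's own test was DESeq2, which was not run here. Same-numbered libraries deviated together in every pair of groups A and B (r of 0.142 to 0.174). The same held for groups A and D (0.087 to 0.579) and, more weakly in 1 pair, for groups B and C (0.005 to 0.277). Between groups C and D r ran from -0.171 to 0.110. Promoters were RefSeq's (GRCm38.p6) and gene models GENCODE M21, another build than the files', matched by symbol.

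Named with values were up to 4 largest rises and falls that passed in each of the comparisons of groups B with A, C with B and D with A, the 3 highest and 3 lowest levels, 10 members with a role set apart, 5 mitoribosomal genes under other symbols, and the largest changes of each list. Remaining names were chosen after their values were seen. On simulated data for groups B and A limma recovered 100% of 200 genes changed 2-fold among 10861, with 14 false calls. The simulation drew every group from group A means with a fixed spread, changed only better-expressed genes and left all others unchanged. It therefore cannot speak to scaling, to the shift of most genes in the real group B, or to members with few reads. Alternatives were pseudocount, filter, TPM, median-ratio and quantile scaling, replicate block, no trend, only the groups compared, limma-voom and leaving out each library.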

Additional observations from a re-analysis of the deposited data

Results flagged for a closer look

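The response to TCA differed with copper, by the interaction term of the limma fit (Benjamini-Hochberg over all genes tested). It was negative in 39 members and positive in 2, against 19.8% and 17.7% of all genes. Among the members named, the interaction on the log2 scale was -1.24 for *Mrpl12*, -0.83 for *Mrpl13*, -0.79 for *Mrps18c*, -0.77 for *Mrpl42*, -0.73 for *Mrpl28*, -0.69 for *Mrps36* and -0.68 for *Mrps33*. It was -0.59 for *Mrpl20*, -0.54 for *Mrpl36*, -0.42 for *Mrpl15*, -0.40 for *Mrps25*, -0.34 for *Mrps30* and -0.32 for *Mrps18b*. Positive values were 0.73 for *Mrps26* and 0.36 for *Mrpl24*. The count of 39 became 25 with limma-voom on recovered reads and median-ratio scaling. Single libraries far from the others were not tested for in these groups of 3.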

How the results depend on the processing

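Counts of members lower with Cu/ES turned on scaling more than on the model. Between groups B and A, 65 were lower, 38 with median-ratio scaling and 36 with limma-voom on recovered reads and that scaling, which was chosen after seeing the data. The 9 higher became 4 with TPM, 22 with quantile normalization, 25 with median-ratio scaling and 26 with the last. The 51 past both thresholds became 30 with median-ratio scaling, 32 with limma-voom and that scaling and 26 with quantile normalization. For groups C and D the 3 higher became 20, 20 and 16 with median-ratio scaling, with limma-voom and that scaling and with quantile normalization, and the 56 past both thresholds became 36 with median-ratio scaling and 33 with quantile normalization. For groups C and B the 1 higher became 2 with TPM and with limma-voom and median-ratio scaling, and the 0 past both thresholds became 1 with TPM, 4 with the pseudocount at 0.1, 5 with limma-voom and 4 with limma-voom and median-ratio scaling. For groups D and A the 1 lower became 2 with TPM, limma-voom or only the groups compared, 4 with quantile normalization and 0 with median-ratio scaling, limma-voom and that scaling, no filter, no trend, a pseudocount of 0.1 or the replicate block. The 9 higher became 5 with no filter, 4 at pseudocount 0.1 and 14 with limma-voom, with or without median-ratio scaling. The 39 negative interactions became 25 with limma-voom and median-ratio scaling. The median of members minus that of all genes was -0.16 between groups B and A, and -0.35 with the filter raised to a mean FPKM of 5, -1.21 with no filter and -0.32 with quantile normalization. For groups C and D it was -0.59, and -0.88 with the stricter filter and -1.69 with no filter. Both filters change which genes enter the second median. Large minus small was 0.36 between groups B and A, and 0.51 with TPM, 0.56 with the stricter filter and 0.12 with quantile normalization. For groups C and D it was 0.36, and 0.49 and 0.19 with the last pair. The cause was not tested. Leaving out each library in turn gave 65 lower in every case and 8 to 9 higher between groups B and A, with 49 to 51 past both thresholds. It gave 68 to 71 lower, 3 to 5 higher and 54 to 59 past both between groups C and D. The higher ones were 5 without C replicate 1 or D replicate 1. Between groups C and B 2 were higher without B replicate 2 or C replicate 1, and 2 passed both thresholds without C replicate 1. For groups C and B it gave 33 to 44 lower, 1 to 2 higher and 0 to 2 past both thresholds, and between groups D and A 0 to 2 lower and 2 to 12 higher. Negative interactions ranged from 28 to 46. Large minus small ranged from 0.34 to 0.54 between groups B and A. Some named members turned direction between groups B and A. With median-ratio scaling *Mrpl28* was at 0.55, *Mrpl24* at 0.56, *Mrpl13* at 0.81 and *Mrps26* at 0.07, and with limma-voom and that scaling at 0.62, 0.62, 0.88 and 0.13. *Mrpl20* was at -0.01 with TPM and *Mrps25* at 0.46 with quantile normalization. Between groups C and D, *Mrps26* was at 0.79, 0.96 and 0.10 and *Mrpl24* at 0.89 and 1.04 with median-ratio scaling, limma-voom and that scaling and, for *Mrps26*, quantile normalization. *Mrpl13* was at 0.08 with limma-voom and median-ratio scaling and *Mrps25* at 0.01 with quantile normalization. Deviations of same-numbered libraries correlated at -0.171 to 0.579 over 18 pairs (mean 0.125, other pairs -0.059), with 11 over 0.1. Nothing in the labels says what a number shares. With the replicate block 65 members were lower and 9 higher between groups B and A, 38 and 1 between groups C and B, 0 and 10 between groups D and A, and 42 interactions were negative. The block changed no member's call between groups B and A, C and D or C and B. It ended the call of *Mrpl24* between groups D and A (adjusted p = 0.0538) and of *Mrps18b* in the interaction (0.0502). It brought past the threshold *Mrps11* between groups D and A (0.0429) and the interactions of *Mrps2* (0.0318), *Mrpl27* (0.0431), *Mrps6* (0.0452) and *Mrpl50* (0.0482). Depth limits the lowest members, with 1 to 31 reads a library for *Mrpl44* and *Mrps2* in groups B and C.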
